A study of Homo sapiens with 6 samples.

Results

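Replicate number 1 was compared with replicate number 2 in a human kidney cell line, with constructs paired: 3 arrays numbered 1 in their labels against 3 arrays numbered 2, which are all 6 arrays of the study. Each number holds 1 array of cells transfected with the empty vector (mock), 1 of cells given the construct labelled hIMP1 wt and 1 of cells given the construct labelled hIMP1 Dmut, so the comparison asks which genes differed between the numbered arrays whatever the construct. IMP1, the product of IGF2BP1, is a cytoplasmic RNA-binding protein. The labels name neither the line nor the Dmut change, and give no time after transfection. They do not say what the numbers 1 and 2 stand for (a culture, a day, an extraction or a hybridisation). Nothing in them names separate cultures either, so each p-value reflects how these 6 arrays vary, and that variation may be technical alone.

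The largest groups of genes described below belong to regulatory programmes that cultured cells adjust continually. ATF4 is a transcription factor made when amino acids run short or when translation initiation is restrained, and it raises genes of amino acid uptake and synthesis. Hypoxia-inducible factors raise genes of oxygen-poor metabolism, immediate early genes answer signals and stress before new protein is made, and histone and mitotic transcripts follow the cell cycle.

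The arrays gave 1 intensity per probe set on a linear scale. The 3 arrays numbered 1 had median intensities of 30.6 to 32.6, and those numbered 2 had 26.7 to 33.7. The 3' to 5' ratio of the control probe sets for ACTB was 1.44 to 1.52 on the arrays numbered 1 and 1.565 to 1.67 on those numbered 2, without overlap, and that for GAPDH was 1.03 to 1.16 and 1.13 to 1.17. The part of these ratios in the results was not tested. Most listed markers of an embryonic kidney line were present: 13 of 17 genes with a probe set passed the filter on dim signal, led by FOXD1, HOXD10 and GATA3. PAX2 (27.9), LHX1 (25.0), OSR1 (19.9) and WNT4 (9.32) lay under the array median. Of 20 neuronal genes with a probe set 10 passed, and TUBB3 (2098) and NEFL (1281) were brighter than FOXD1 (668). Genes of differentiated kidney epithelium were near or below the array median of 30.7 (NPHS1 2.70, CDH16 4.33, LRP2 38.4), so the labelled tissue was read through lineage factors rather than through tubule or glomerulus genes. Markers of other cell types had summed intensities that overlapped between the numbers. The 9 blood cell markers with a probe set, 4 of them kept by the filter, summed to 586 to 703 and 548 to 651, with PTPRC at 7.22. The 10 fibroblast markers with a probe set, 2 of them kept, summed to 297 to 304 and 215 to 359. The 9 markers of epithelial cancer lines with a probe set, 6 of them kept and including CDKN2A and KRT18, summed to 3510 to 3535 and 3441 to 4145.

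More probe sets were called for the array number than for the construct. Of 27307 probe sets kept, 1558 (5.71%) passed an adjusted p of 0.05 for number 2 minus number 1 in a limma fit with construct as the other term; such probe sets are termed called below. Of these, 767 (2.81%) were higher on the arrays numbered 2 and 791 (2.9%) were lower, and 205 differed at least 2-fold. In the same fit the construct terms called 2 probe sets (0.00732%). The array number took 37.05% of the total sum of squares with 1 degree of freedom, the construct took 29.5% with 2, and the remaining 33.4% had 2. Across probe sets, arrays of the same number correlated at 0.970 to 0.980 and arrays of the same construct at 0.963 to 0.964. The calls rest on how the fit estimates spread from 2 residual degrees of freedom: with a prior that does not follow intensity, 0 probe sets were called (smallest adjusted p 0.165), while 5076 had an unadjusted p under 0.05 against 6082. They rest on the arrays too, since leaving out the mock pair left 587 calls, leaving out the hIMP1 wt pair 330, and leaving out the hIMP1 Dmut pair 5557. These fits have fewer residual degrees of freedom and lean more on the spread pooled over probe sets. Their prior had 44.9, 26.3 and 62.9 degrees of freedom, against 10.5 with all arrays.

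The 3 construct pairs share no array, but all set number 2 against number 1. The mock and hIMP1 wt pairs were the most alike, with a Pearson r of 0.46 across the 27307 probe sets. The hIMP1 Dmut pair correlated with the mock pair at 0.20 and with the hIMP1 wt pair at 0.22. Among the 6827 brightest kept probe sets these values were 0.77, 0.36 and 0.37. Genes are not independent replicates, so these are descriptions. In all, 43.37% of the probe sets differed in the same direction in all 3 pairs. The pairs also differed in how change followed brightness: in the 2731 brightest probe sets the median change was 0.11 in the mock pair, 0.15 in the hIMP1 wt pair and -0.04 in the hIMP1 Dmut pair, and in the 2731 dimmest it was -0.17, -0.20 and 0.12. The split of the calls depends on the scaling. Dividing each array by its median moved the median change of all probe sets from -0.01 to 0.09 and made 69.9% of 1453 called probe sets higher, against 49.2% as deposited.

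**Figure D1:**
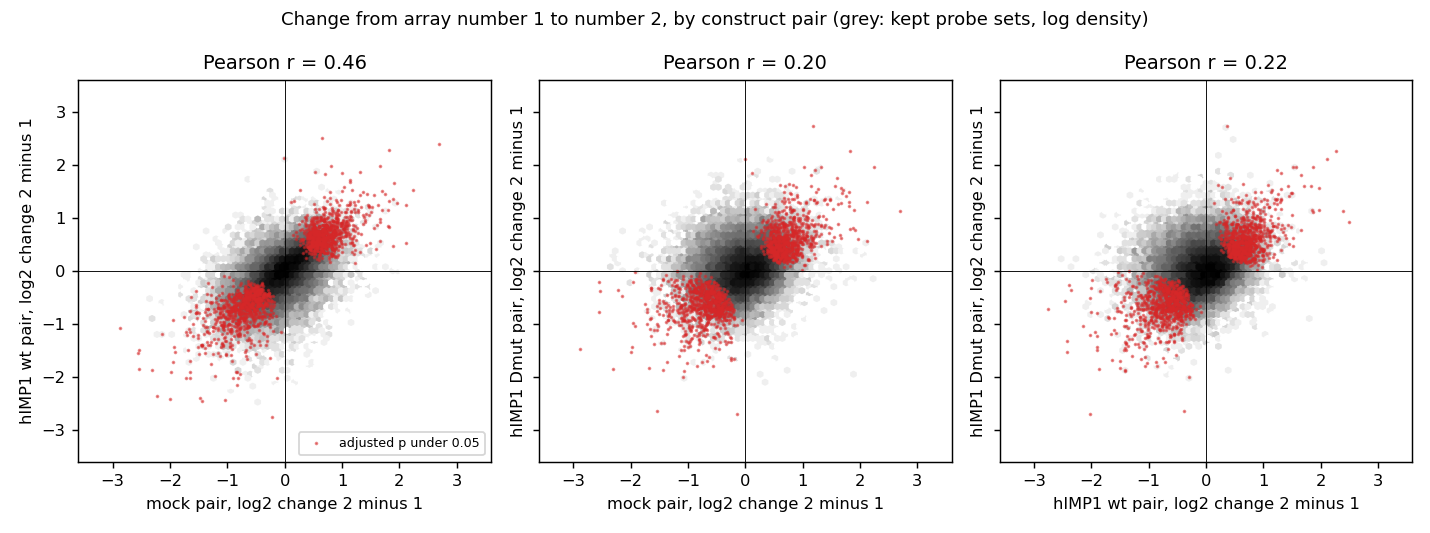
Log2 change from array number 1 to number 2 in one construct pair against another, for the mock, hIMP1 wt and hIMP1 Dmut pairs. Grey shading is the log density of the kept probe sets and red points are those called; the mock and hIMP1 wt pairs lie closest to a common diagonal (r = 0.46), and the panels with the hIMP1 Dmut pair are rounder (0.20 and 0.22).

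By gene, taking the brightest kept probe set, 12265 genes were measured and 760 (6.2%) were called, 455 higher (3.71%) and 305 lower (2.49%) on the arrays numbered 2. All 760 differed in the same direction in all 3 pairs. Without overlap between the 3 arrays of one number and the 3 of the other were 3739 genes (30.5%). Where another kept probe set read a called gene, it had the same sign for 374 of 498 probe sets of genes called higher (75.1%) and for 285 of 334 of genes called lower (85.33%), against 60.3% for genes not called. Of 133 called genes named by the rule used here (markers, kidney lineage and neuronal genes left out), 44 were called with any 1 pair of arrays left out. Of the others 21 were called in 2 of the 3 such fits and 68 in 1. Such fits lean more on the pooled spread than the fit with all arrays, so these counts do not test each gene alone. Without an intensity trend 0 of the 133 were called. The 44 include MALAT1, TSC22D3, DDIT4, TXNIP, NUPR1, TNFRSF12A, RANGAP1, SNHG17 and DUSP1. Of all 12265 genes, 23.1% were called without the hIMP1 Dmut pair (1648 higher, 1188 lower). Without the mock pair 1.92% were called (143 and 92), and without the hIMP1 wt pair 1.19% (92 and 54). List counts below that leave out a pair are to be read beside these shares.

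Among the genes called higher, MALAT1, a long non-coding RNA kept in nuclear speckles, had the largest difference. Its intensity was 1082 with mock, 800.1 with hIMP1 wt and 1181 with hIMP1 Dmut on the arrays numbered 1, and 3449, 3164 and 3489 on those numbered 2; intensities below follow this order of constructs and numbers. The log2 difference was 1.73 ± 0.12 (moderated SE of the limma fit, n = 3 pairs), or 3.32-fold (adjusted p = 7.97e-05), and all 11 of its other kept probe sets were higher as well. Every SE given here is moderated: the fit draws the spread of each probe set towards a trend over intensity. It can therefore be smaller than the spread between the 3 pairs of a gene. TSC22D3, a glucocorticoid-induced leucine zipper protein, read 523.6, 475.1 and 462.8 and then 1556, 1299.5 and 1427. Its difference was 1.53 ± 0.11 (adjusted p = 8.87e-05), and its second probe set gave 1.71. TXNIP, which binds thioredoxin and restrains glucose uptake, read 360.2, 276.3 and 298.9 and then 1057, 645.7 and 680.2 (1.30 ± 0.13, adjusted p = 4.52e-04), with both other probe sets called higher. ASS1, the argininosuccinate synthase of arginine synthesis, read 312.9, 312.1 and 309.4 and then 981.9, 752.0 and 754.0 (1.38 ± 0.13, adjusted p = 2.98e-04). None of these 4 genes overlapped between the numbers, and mock was the brightest array numbered 2 for TSC22D3, TXNIP and ASS1. STC1, a secreted glycoprotein hormone, was 1.47 ± 0.18 higher, and its other probe sets gave 2.11 and 1.36. IGFBP5, which binds insulin-like growth factors, was 1.17 ± 0.15 higher, with 4 further probe sets all in that direction. The alpha-tubulin gene TUBA1A was 0.99 ± 0.13 higher and the methyltransferase gene TMT1A 0.92 ± 0.12.

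Other genes among the 15 with the largest higher values follow. GDF15, a stress-induced cytokine, read 44.3, 73.1 and 5.11 and then 111.1, 96.4 and 85.2. Its difference of 1.42 ± 0.37 (adjusted p = 0.0444) was largest in the hIMP1 Dmut pair (2.73) and 0.36 in the hIMP1 wt pair. The hIMP1 Dmut array numbered 1 (5.11) lies under the offset of 9.05 added before the logarithm, so the value of that pair depends on the offset. GDF15 was called with any 1 pair left out but in only 4 of 9 other settings. SNCAIP (1.55), the GABA receptor subunit gene GABRB2 (1.45), the atypical cadherin gene FAT3 (1.33), the nuclear envelope gene SYNE1 (1.25), MIR1915HG (1.25) and the G protein gene GNAO1 (1.25) completed the group. SNCAIP lay at 12.1 to 16.7 on the arrays numbered 1, under the array median, so its fold depends on the offset added before the logarithm. Its other probe set gave 0.03 and was not called. GNAO1 was higher in each pair although the numbers overlapped, since both hIMP1 wt arrays (74.6 and 159.5) were brighter than the others of their number.

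TNFRSF12A, the receptor for the cytokine TWEAK, had the largest difference downwards. It read 215.7 with mock, 304.5 with hIMP1 wt and 218.8 with hIMP1 Dmut on the arrays numbered 1, and 36.4, 77.1 and 54.2 on those numbered 2 (-2.01 ± 0.18, adjusted p = 2.98e-04, 4.02-fold). SNHG17, a small nucleolar RNA host gene, read 1571, 1462 and 1763 and then 751.4, 714.2 and 767.3. Its difference was -1.09 ± 0.11 (adjusted p = 5.32e-04), and its second probe set gave -0.90. RANGAP1, which activates the GTPase of the nuclear transport protein Ran, read 619.6, 694.3 and 710.04 and then 302.7, 334.1 and 205.3 (-1.26 ± 0.15, adjusted p = 0.00182). A second RANGAP1 probe set gave -1.17 and the third -0.35, which was not called. CCDC86, a nucleolar protein gene, was lower by -0.84 ± 0.15, and AIRIM by -0.85 ± 0.21, the latter with a change of -1.20 and -1.35 in the mock and hIMP1 wt pairs and nearly equal intensities in the hIMP1 Dmut pair (590.9 and 590.2). TOR1AIP2, a torsin activator of the nuclear envelope and endoplasmic reticulum (ER), was lower by -0.999 ± 0.12, with 4 of 5 other probe sets in that direction and the fifth at 0.51. Dimmer genes of the group were ARVCF (-1.61), DISP3 (-1.52), LINC01016 (-1.41), BHLHA15 (-1.40), TMEM95 (-1.38), LRP5L (-1.33), the small MAF factor gene MAFF (-1.30), the ciliary neurotrophic factor receptor gene CNTFR (-1.29) and DOHH (-1.27), which completes the hypusine of translation factor eIF5A. LRP5L, CNTFR and TMEM95 changed by -1.47 to -2.39 in the mock and hIMP1 wt pairs but by -0.32, -0.21 and -0.27 in the hIMP1 Dmut pair. DISP3, TMEM95 and CNTFR were each called in 3 of 9 other settings.

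**Figure D2:**
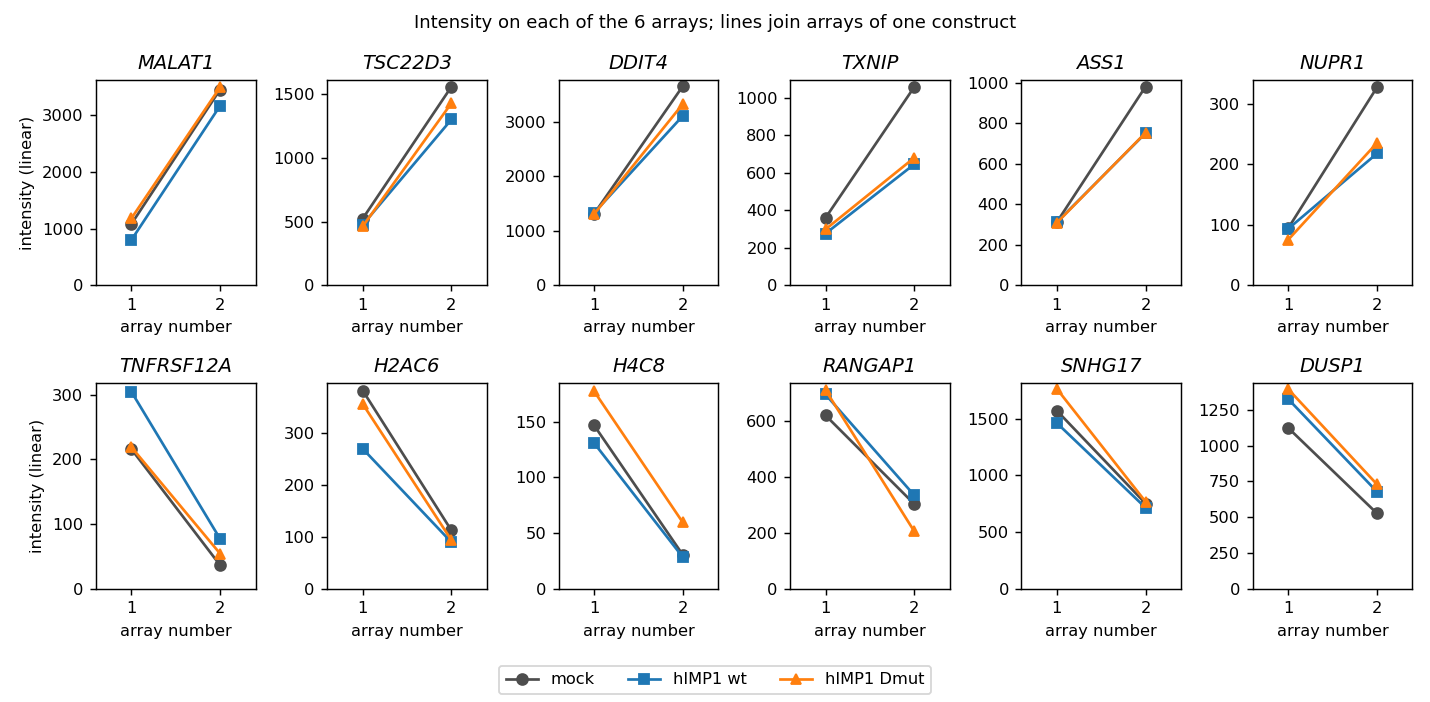
Intensity on a linear scale from 0 for 12 genes, with 1 point per array at array number 1 or 2 and lines joining the mock, hIMP1 wt and hIMP1 Dmut arrays. In each panel the 3 lines run the same way: MALAT1 from 800.1 to 1181 up to 3164 to 3489, and TNFRSF12A from 215.7 to 304.5 down to 36.4 to 77.1.

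Promoter sequences are shown for members of 4 lists described below, to set known response elements beside the values. Each is the 250 bases before the annotated start, read 5′ to 3′ on the gene's strand, from RefSeq on GRCh38.p14. Promoters of 10034 of the 12265 measured genes were matched. Capitals mark matches on either strand to TGATGNAAN (the amino acid response element, AARE), TGACGTCA (the cyclic AMP response element, CRE), ACGTG (the core of the hypoxia element, which also lies within the E-box CACGTG) and CCAAT. A match is a description of the letters and not a binding site. ASNS lies at chr7:97872409-97872658 on the minus strand and CHAC1 at chr15:40953221-40953470 on the plus strand, both of the ATF4 list. DDIT4, of the ATF4 and hypoxia lists, lies at chr10:72273674-72273923 on the plus strand. ANKRD37 (chr4:185396591-185396840, plus) and BNIP3 (chr10:131981924-131982173, minus) are of the hypoxia list. H2AC6 (chr6:26123922-26124171, plus) is a histone gene and DUSP1 (chr5:172771196-172771445, minus) an immediate early gene.
ASNS: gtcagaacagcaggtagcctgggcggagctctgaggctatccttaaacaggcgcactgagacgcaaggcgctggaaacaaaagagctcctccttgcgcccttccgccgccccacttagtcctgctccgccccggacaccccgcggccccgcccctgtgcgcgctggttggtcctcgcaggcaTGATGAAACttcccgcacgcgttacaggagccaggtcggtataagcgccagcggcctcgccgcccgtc
CHAC1: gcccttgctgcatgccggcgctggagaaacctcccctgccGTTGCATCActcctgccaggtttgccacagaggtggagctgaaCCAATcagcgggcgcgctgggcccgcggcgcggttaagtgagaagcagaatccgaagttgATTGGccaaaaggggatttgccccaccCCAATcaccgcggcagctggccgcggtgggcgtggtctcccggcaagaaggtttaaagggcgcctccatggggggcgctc
DDIT4: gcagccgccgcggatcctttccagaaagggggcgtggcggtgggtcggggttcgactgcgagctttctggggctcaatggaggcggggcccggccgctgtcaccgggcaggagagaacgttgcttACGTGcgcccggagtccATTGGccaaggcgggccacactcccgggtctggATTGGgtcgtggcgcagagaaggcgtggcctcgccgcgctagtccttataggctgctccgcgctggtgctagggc
ANKRD37: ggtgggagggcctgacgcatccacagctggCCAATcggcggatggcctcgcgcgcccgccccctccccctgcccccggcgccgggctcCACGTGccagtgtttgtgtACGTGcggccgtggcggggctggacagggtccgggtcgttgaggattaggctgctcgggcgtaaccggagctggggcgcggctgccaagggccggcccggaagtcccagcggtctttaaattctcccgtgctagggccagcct
BNIP3: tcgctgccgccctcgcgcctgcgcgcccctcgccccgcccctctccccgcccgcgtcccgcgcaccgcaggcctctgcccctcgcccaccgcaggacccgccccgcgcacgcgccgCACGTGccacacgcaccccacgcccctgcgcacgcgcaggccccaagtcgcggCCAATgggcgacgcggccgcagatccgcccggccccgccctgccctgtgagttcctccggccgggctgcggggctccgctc
H2AC6: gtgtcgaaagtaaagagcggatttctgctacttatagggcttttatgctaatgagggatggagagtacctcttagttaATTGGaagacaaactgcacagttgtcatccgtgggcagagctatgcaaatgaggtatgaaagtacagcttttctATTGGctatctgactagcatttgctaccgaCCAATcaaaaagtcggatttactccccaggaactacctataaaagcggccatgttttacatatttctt
DUSP1: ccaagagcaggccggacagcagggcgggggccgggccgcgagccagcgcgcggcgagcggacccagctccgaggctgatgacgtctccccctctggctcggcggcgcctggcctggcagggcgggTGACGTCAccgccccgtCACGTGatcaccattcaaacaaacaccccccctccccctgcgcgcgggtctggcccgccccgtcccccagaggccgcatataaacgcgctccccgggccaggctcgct

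The list of ATF4 targets and genes of the amino acid response had the highest median of the lists with at least 10 measured genes. All 35 of its genes with a probe set were measured, of 36 listed; 32 were higher on the arrays numbered 2 and 3 lower, with a median log2 change of 0.43 against 0.02 over all genes measured. The median was 0.61 in the mock pair, 0.34 in the hIMP1 wt pair and 0.36 in the hIMP1 Dmut pair. In it 17 genes were called higher and 2 lower, where 3.71% and 2.49% of all genes were called in those directions. The count was 23 higher and 3 lower without the hIMP1 Dmut pair, 6 and 1 without the hIMP1 wt pair, 3 and 1 without the mock pair, and 10 and 1 under median scaling. DDIT4, an inhibitor of the growth kinase mTORC1, read 1314.5, 1331 and 1308 and then 3654, 3110 and 3327 (1.34 ± 0.11, adjusted p = 1.92e-04). NUPR1, a small stress-induced chromatin protein, read 94.8, 93.7 and 75.6 and then 327.4, 218.1 and 235.5 (1.46 ± 0.17, adjusted p = 0.0017). Neither gene overlapped between the numbers.

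ATF4 itself read 5217, 5768 and 6364 and then 8839, 8139 and 7563, a difference of 0.50 ± 0.13 (adjusted p = 0.0455). Its partner and target DDIT3 (CHOP) was 0.71 ± 0.16 higher, the feedback pseudokinase gene TRIB3 0.53 ± 0.13, and the mTORC1 inhibitor SESN2 0.76 ± 0.16. CHAC1, which breaks down glutathione, read 131.1, 159.6 and 181.2 and then 385.6, 232.3 and 323.1 (0.94 ± 0.18, adjusted p = 0.0158). ASNS, asparagine synthetase, read 3628, 3887 and 4071 and then 6751, 5242 and 5187 (0.56 ± 0.13, adjusted p = 0.0321). The serine synthesis enzyme gene PHGDH (0.56 ± 0.12) and the mitochondrial serine enzyme gene SHMT2 (0.46 ± 0.12) were called with it. SLC7A11, the cystine importer, was 0.74 ± 0.12 higher, although 1 of its other probe sets gave -0.33. Its partner chain SLC3A2 went the other way (-0.52 ± 0.11, adjusted p = 0.0259), as did the stress factor ATF3 (-0.88 ± 0.11, adjusted p = 0.00246), which is also an immediate early gene. In the mock pair the changes of CHAC1 (1.49), DDIT3 (1.23) and TRIB3 (0.92) were more than in either hIMP1 pair. Of the 28 genes of the list with a promoter, 4 held the AARE letters (14.29%), against 1.47% of all promoters. Among promoters of all genes called higher the share was 2.39% (9 of 377). The list was chosen as ATF4 targets, so its share describes the list and not these arrays. In ASNS the AARE begins 68 bases before the start, as TGATGAAAC, and in CHAC1 210 bases before it, as GTTGCATCA on the printed strand.

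**Figure D3:**
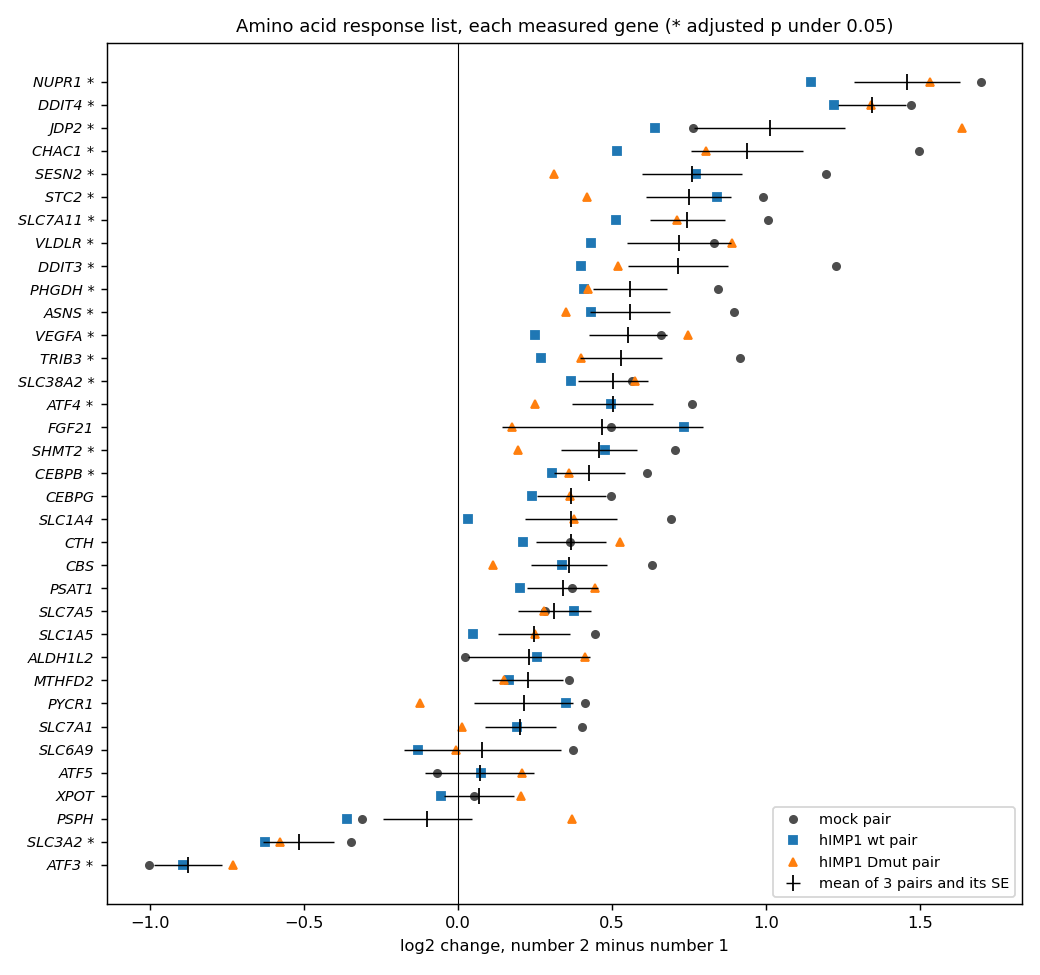
Log2 change, number 2 minus number 1, of each of the 35 measured genes of the amino acid response list, with 1 symbol per construct pair. A black cross marks the mean of the 3 pairs with the moderated standard error of the fit. NUPR1 and DDIT4 lie at the top (1.46 and 1.34), and SLC3A2 and ATF3 are the 2 genes called lower (-0.52 and -0.88); stars mark calls.

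Genes of the unfolded protein response of the ER, one branch of which also leads to ATF4, had a median of the opposite sign. Of 34 measured genes 21 were lower and 13 higher, the list's median was -0.09, and 3 were called, all lower (8.82% of the list, against 6.2% of all genes). The median turned to 0.02 under median scaling, with 1 called, and 1 was called without the mock or the hIMP1 wt pair. PPP1R15A, the phosphatase subunit that restores translation, read 326.0, 428.7 and 492.6 and then 183.3, 188.3 and 265.0 (-0.94 ± 0.14, adjusted p = 0.00453). HSPA5, the main ER chaperone BiP, read 3533, 4865 and 4515 and then 2575, 3395 and 2771 (-0.56 ± 0.11, adjusted p = 0.0185). SELENOS, of ER-associated degradation, was lower by -0.50 ± 0.11.

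Genes raised by hypoxia formed a second group that was higher on the arrays numbered 2. Of 25 measured genes (27 with a probe set) 20 were higher and 5 lower. The median of 0.37 was close to the same in the 3 pairs (0.37, 0.29 and 0.34 for mock, hIMP1 wt and hIMP1 Dmut). In this list 10 genes (40%) were called higher and 0 lower, against 6.2% of all genes called. Without the hIMP1 Dmut, hIMP1 wt and mock pair 13, 4 and 5 were called higher. ANKRD37 read 56.5, 96.8 and 103.8 and then 233.0, 261.8 and 188.6 (1.35 ± 0.21, adjusted p = 0.00579). BNIP3, a mitophagy receptor, read 767.1, 811.0 and 863.4 and then 1269, 1374 and 1234 (0.66 ± 0.11, adjusted p = 0.00988). VEGFA, the angiogenic growth factor, was 0.55 ± 0.13 higher and also stands in the ATF4 list, as DDIT4 does. The circadian repressor gene BHLHE40 was 0.77 ± 0.13 higher and the mitochondrial FAM162A 0.77 ± 0.13, with 1 of 4 other FAM162A probe sets at -0.27. PDK1, the kinase that closes the entry to the citrate cycle, and the collagen hydroxylases P4HA1 and PLOD2 were higher by 0.49 to 0.53. The ACGTG letters were in 12 of 21 promoters of the list (57.14%), against 23.52% of all promoters, and ANKRD37, BNIP3 and DDIT4 hold them as printed. Among promoters of all genes called higher the share was 20.69% (78 of 377). The list was chosen as genes raised by hypoxia, so its share describes the list and not these arrays. Among glycolysis genes, which overlap the hypoxia programme, 2 of 20 were called (10%, against 6.2% of all genes). They were the glucose transporter gene SLC2A3 (1.11 ± 0.18) and ALDOC (0.83 ± 0.20). The glycolysis median of 0.19 came from the mock and hIMP1 wt pairs (0.37 and 0.32), with -0.04 in the hIMP1 Dmut pair, and 12 were called without the latter.

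Replication-dependent histone genes had the lowest median of the lists. Their mRNAs are made in S phase and end in a stem-loop in place of a poly(A) tail. The part of the missing tail in these values was not tested. The median of this list was not followed in the alternatives, which took lists of at least 10 measured genes. Of 25 listed genes 18 had a probe set and 8 passed the filter on dim signal. The 8 were lower in number 2, with a median of -0.85 (-1.07, -0.996 and -0.66 in the mock, hIMP1 wt and hIMP1 Dmut pairs). Of them 4 were called (50%, against 6.2% of all genes). H2AC6 read 382.4, 270.1 and 356.5 and then 112.4, 89.6 and 93.6 (-1.67 ± 0.15, adjusted p = 2.98e-04). H4C8 read 146.7, 130.8 and 177.3 and then 30.4, 28.3 and 59.5 (-1.78 ± 0.22, adjusted p = 0.00184), and its second probe set gave -1.47. The linker histone gene H1-2 read 304.4, 304.5 and 389.3 and then 139.6, 142.3 and 139.4 (-1.18 ± 0.15, adjusted p = 0.0023). H2BC5 was lower by -0.83 ± 0.16. H3C6, not in the list, was lower by -1.41 ± 0.35 at intensities of 47.3 to 57.2 and then 8.90 to 26.6. H2AC6, H4C8 and H1-2 were called with any 1 pair left out. Histone genes of one kind are near-identical in sequence, so a probe set can read several of them. CCAAT was in 6 of 8 promoters of the list (75%), 3 times in H2AC6, against 35.24% of all promoters and 37.15% of those of genes called lower.

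Mitosis genes were mostly higher. Of 60 mitosis genes, all measured, 50 were higher and 10 lower on the arrays numbered 2, with a median of 0.23. Of these 12 were called higher and 0 lower (20%, against 6.2% of all genes called). The count was 26 higher and 1 lower without the hIMP1 Dmut pair and 3 higher without either of the other pairs. MKI67, the Ki-67 proliferation antigen, read 716.8, 523.5 and 547.1 and then 1156, 1097 and 958.9 (0.85 ± 0.12, adjusted p = 0.0039), with its 3 other probe sets at 0.08 to 0.38 and not called. The kinetochore gene CENPF was 0.87 ± 0.12 higher, the topoisomerase gene TOP2A 0.81 ± 0.12 and the kinetochore gene NUF2 0.55 ± 0.11. Genes of G1/S and DNA replication were 25 higher and 22 lower of 47, with a median of 0.04. In this list 4 were called lower and 1 higher, and 11 were lower and 2 higher at an unadjusted p under 0.05. Lower calls numbered 13 without the hIMP1 Dmut pair, 1 without the hIMP1 wt pair and 2 without the mock pair. CDC6, which loads the replicative helicase, read 697.2, 968.4 and 1004 and then 418.2, 518.6 and 569.4 (-0.81 ± 0.11, adjusted p = 0.00401). CDT1, its partner in loading, was lower by -0.78 ± 0.16, but its other probe set gave -0.02 and was not called. The clamp loader gene RFC2 was lower by -0.49 ± 0.12, while RFC4 was 0.44 ± 0.11 higher. In RNA of a whole culture, fewer cells in a phase and less RNA per cell cannot be told apart.

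**Figure D4:**
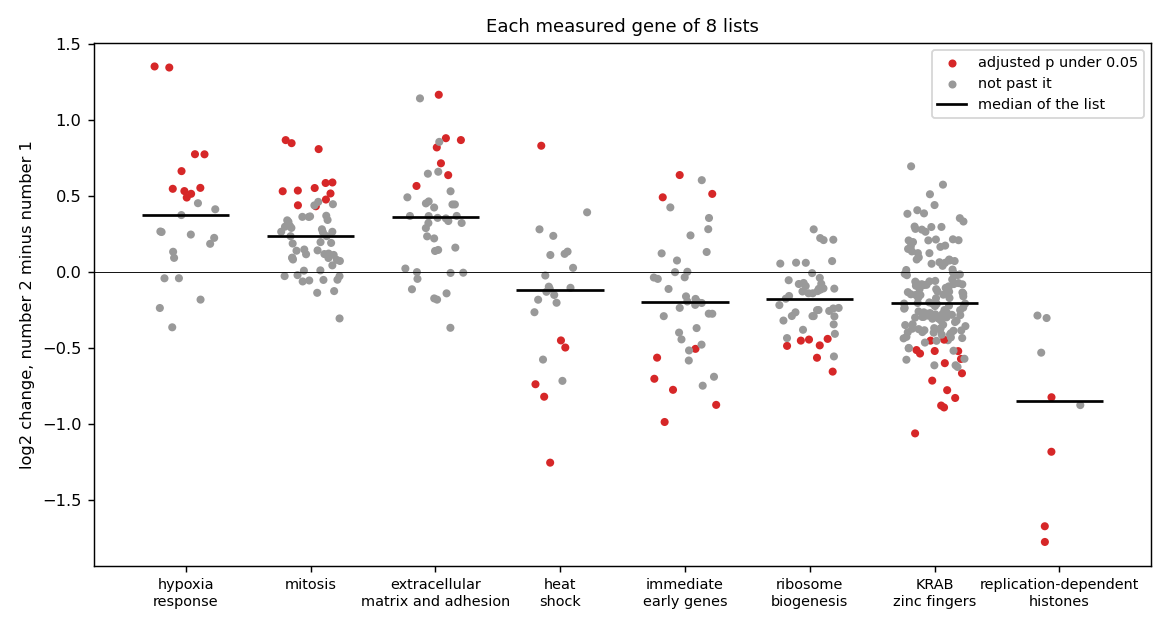
Log2 change, number 2 minus number 1, of each measured gene in 8 lists, as the mean of the 3 construct pairs, red where called and grey where not, with a bar at the list's median. Hypoxia, mitosis and extracellular matrix genes lie mostly above 0 and the 8 histone genes below it, at a median of -0.85; the heat shock median of -0.12 turned to 0.01 without the hIMP1 Dmut pair.

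Genes of the extracellular matrix and adhesion were higher on the arrays numbered 2. Of 42 measured genes (52 with a probe set) 33 were higher and 9 lower, the median being 0.36 (0.40, 0.23 and 0.42 in the mock, hIMP1 wt and hIMP1 Dmut pairs). Of these 7 were called higher and 0 lower (16.7%, against 6.2% of all genes called). The count was 10 higher and 1 lower without the hIMP1 Dmut pair, 3 and 0 without the hIMP1 wt pair, and 7 and 0 without the mock pair. The list's shares in that order were 26.2%, 7.14% and 16.7%, against 23.1%, 1.19% and 1.92% of all genes. VCAN, the proteoglycan versican, read 222.1, 182.9 and 202.9 and then 425.9, 459.3 and 509.8 (1.16 ± 0.14, adjusted p = 0.0017), and its 4 other probe sets gave 1.01 to 1.15. FN1, fibronectin, read 273.0, 265.1 and 294.0 and then 595.1, 443.1 and 523.4 (0.88 ± 0.13, adjusted p = 0.00518). COL4A2 of basement membrane collagen was 0.71 ± 0.12 higher, with its other probe set at 0.13 and not called. COL6A1 was 0.82 ± 0.13 higher, although 2 of 3 other COL6A1 probe sets gave -0.19 and -0.34. The summed fibroblast markers given above overlapped between the numbers. Cholesterol synthesis genes were also mostly higher, 13 of 19, with a median of 0.24 and 4 called (21.1%, against 6.2% of all genes). The 4 were STARD4, a sterol carrier (0.68 ± 0.12), IDI1 (0.65 ± 0.11, -0.10 at another probe set), the sterol sensor partner INSIG1 (0.56 ± 0.11) and FDPS (0.51 ± 0.11). In WNT signalling 4 of 28 genes were called (14.3%, against 6.2% of all genes), all higher, with a list median of 0.12. They were the co-receptor gene LRP6 (0.84 ± 0.12), the receptor gene FZD2 (0.67 ± 0.17), RNF43, which removes Frizzled receptors (0.93 ± 0.23), and the target MYC (0.64 ± 0.12). Without the hIMP1 Dmut, hIMP1 wt and mock pair the cholesterol calls were 8 higher and 1 lower, 1 and 0, and 1 and 0. The WNT calls in that order were 4 higher and 1 lower, 2 and 0, and 1 and 0. Without the hIMP1 Dmut pair 17.9% of WNT genes were called, against 23.1% of all genes.

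Immediate early genes were lower on the arrays numbered 2 as a group. Of 41 measured genes 30 were lower and 11 higher, with a median of -0.20 (-0.21, -0.23 and -0.09 in the mock, hIMP1 wt and hIMP1 Dmut pairs). Of these 6 were called lower and 3 higher (22%, against 6.2% of all genes called). Without 1 pair the calls were 8 lower and 3 higher (hIMP1 Dmut left out), 2 and 1 (hIMP1 wt) and 2 and 0 (mock), and 3 and 1 under median scaling. DUSP1, the phosphatase that ends MAP kinase signalling, read 1123, 1324 and 1394 and then 526.1, 677.9 and 729.2 (-0.99 ± 0.11, adjusted p = 0.00127). ATF3 read 1937, 1998 and 2238 and then 961.3, 1073 and 1345, with its 2 other probe sets at -0.93 and -1.25. The AP-1 subunit gene JUN (-0.51 ± 0.11), IER2 (-0.56 ± 0.11) and the zinc finger factor gene EGR1 (-0.70 ± 0.19) were called with them. FOS, a member of the same AP-1 dimer, read 48.8, 25.5 and 36.0 and then 22.2, 36.6 and 53.7, a difference of about 0 with an SE of 0.35. The 3 called higher were the transcription factor genes MYC, ID2 and HES1. The CRE letters were in 2 of 30 promoters of the list (6.67%). They were in 5.14% of promoters of all genes called lower (13 of 253) and in 2.98% of all promoters. The DUSP1 promoter holds them 125 bases before its start. Of the promoters of the histone list 3 of 8 held them (37.5%).

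Heat shock genes changed unevenly. Of 24 measured genes 16 were lower and 8 higher, with a median of -0.12 that turned to 0.01 without the hIMP1 Dmut pair. Of these 5 were called lower and 1 higher (25%, against 6.2% of all genes called). The calls were 6 lower and 4 higher without the hIMP1 Dmut pair, 0 and 1 without the hIMP1 wt pair, 1 and 0 without the mock pair, and 2 and 1 under median scaling. HSPB8, a small heat shock protein gene, read 149.0, 172.2 and 123.8 and then 46.9, 52.3 and 72.5 (-1.26 ± 0.22, adjusted p = 0.0116), while its relative HSPB1 read 166.1, 276.8 and 262.8 and then 430.2, 451.2 and 368.0 (0.83 ± 0.16, adjusted p = 0.0169). CHORDC1, an HSP90 co-chaperone, was lower by -0.74 ± 0.15 and the HSP40 gene DNAJA1 by -0.50 ± 0.12. HSPA6, the strictly inducible HSP70 gene, read 28.6 with mock, 645.9 with hIMP1 wt and 1033 with hIMP1 Dmut on the arrays numbered 1, and 3.02, 453.7 and 824.03 on those numbered 2. It was lower in number 2 in each pair (-1.64, -0.50 and -0.32), with a mean of -0.82 ± 0.22 (adjusted p = 0.047), and the difference between mock and hIMP1 arrays was seen within both numbers. The call was kept in 3 of 10 other settings and lost, for one, without the replicate block (adjusted p = 0.757). It was also lost without the mock pair (-0.41, adjusted p = 0.248), both of whose intensities lie under the array median, and without the hIMP1 wt pair. Its dimmer probe set gave -0.57 and was not called (adjusted p = 0.109), and RNA of HSPA7, a pseudogene of nearly the same sequence, could be read by both. IGF2BP1 read 230.5, 226.1 and 266.1 and then 306.9, 326.5 and 287.5 at its brighter probe set (0.34 ± 0.14, adjusted p = 0.177), but its dimmer probe set was called lower (-0.83, adjusted p = 0.0143), so the direction for the gene of the transfected protein was not settled between them.

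Ribosome biogenesis genes had a median below 0 in all 3 pairs, and 26 of 49 were lower in each pair. Of 49 measured genes 41 were lower and 8 higher, with a median of -0.18 (-0.16, -0.10 and -0.26 in the mock, hIMP1 wt and hIMP1 Dmut pairs). Of these 7 were called lower and 0 higher (14.3%, against 6.2% of all genes called). There were 12 lower and 3 higher calls without the hIMP1 Dmut pair and 0 without either of the others, where 17 were lower at an unadjusted p under 0.05 with all arrays. Under median scaling 0 were called and the median was -0.07. RRN3, which recruits RNA polymerase I to ribosomal DNA, read 1068, 1118 and 1012 and then 569.9, 678.1 and 786.8 (-0.66 ± 0.13, adjusted p = 0.0155). UTP14A (-0.49 ± 0.11), MRTO4 (-0.48 ± 0.11) and RRP1B (-0.57 ± 0.14), which act in processing or assembly of ribosomal subunits, were also called. The ribosomal protein genes themselves were not: of 53 measured cytosolic ones 51 were higher and 2 lower, the median being 0.17 that turned to -0.01 under quantile scaling, and 0 were called by limma with all arrays (3 had an unadjusted p under 0.05). Their median was 0.35 in the mock pair, 0.26 in the hIMP1 wt pair and -0.08 in the hIMP1 Dmut pair, and 42 of the 53 were called higher when the hIMP1 Dmut pair was left out. Splicing regulators of the hnRNP and SR families were mostly lower, 39 of 53 with a median of -0.12. LUC7L, a U1 snRNP partner, read 1439, 1315 and 1504 and then 686.2, 816.4 and 965.6 (-0.79 ± 0.12, adjusted p = 0.00579), and its relative LUC7L2 was lower by -0.66 ± 0.12. PNISR, an SR-related gene, was the 1 called higher (0.75 ± 0.12).

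Respiratory chain genes were higher with small differences. Of 33 complex I genes 29 were higher, with a median of 0.20 and 4 called (12.1%). Of 37 genes of complexes II to V 34 were higher, with a median of 0.23 and 4 called (10.8%). In either list 0 were called lower, and of all genes 6.2% were called. The medians in the mock, hIMP1 wt and hIMP1 Dmut pairs were 0.23, 0.30 and 0.07 for complex I and 0.29, 0.33 and 0.07 for the others. NDUFA1 of complex I read 3671, 3718 and 3009 and then 5167, 5657 and 3992 (0.50 ± 0.11, adjusted p = 0.0281), and UQCRB of complex III was 0.45 ± 0.11 higher, with a probe set of the opposite sign. Without the hIMP1 Dmut pair 19 and 25 genes were called higher and 0 and 1 lower, and without either other pair, or under median scaling, 0 were called in either list. At an unadjusted p under 0.05, with all arrays, 15 and 12 were higher and 0 lower.

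KRAB zinc finger genes, which encode repressors of transposable elements and lie largely in clusters on chromosome 19, were lower. Of 158 measured genes (175 with a probe set) 117 were lower and 41 higher, with a median of -0.20 (-0.32, -0.27 and -0.07 in the mock, hIMP1 wt and hIMP1 Dmut pairs). Of these 15 were called lower and 0 higher (9.49%, against 6.2% of all genes called). The count of lower calls was 44 without the hIMP1 Dmut pair and 2 without either of the others. Under median scaling the median was -0.10, with 6 called lower and 2 higher. ZNF430 read 351.8, 297.8 and 328.6 and then 135.3, 126.4 and 200.6 (-1.06 ± 0.16, adjusted p = 0.00533), and ZNF93 340.8, 350.4 and 324.0 and then 140.1, 200.5 and 229.4 (-0.83 ± 0.16, adjusted p = 0.0158). ZNF681 (-0.89) and ZNF544 (-0.57) were called as well. Of all genes called lower, 33 of 305 lay on chromosome 19 (10.8%), against 15 of 455 called higher (3.3%) and 6.7% of all genes measured. Members of this family share long stretches of sequence, so a probe set can read more than 1.

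**Figure D5:**
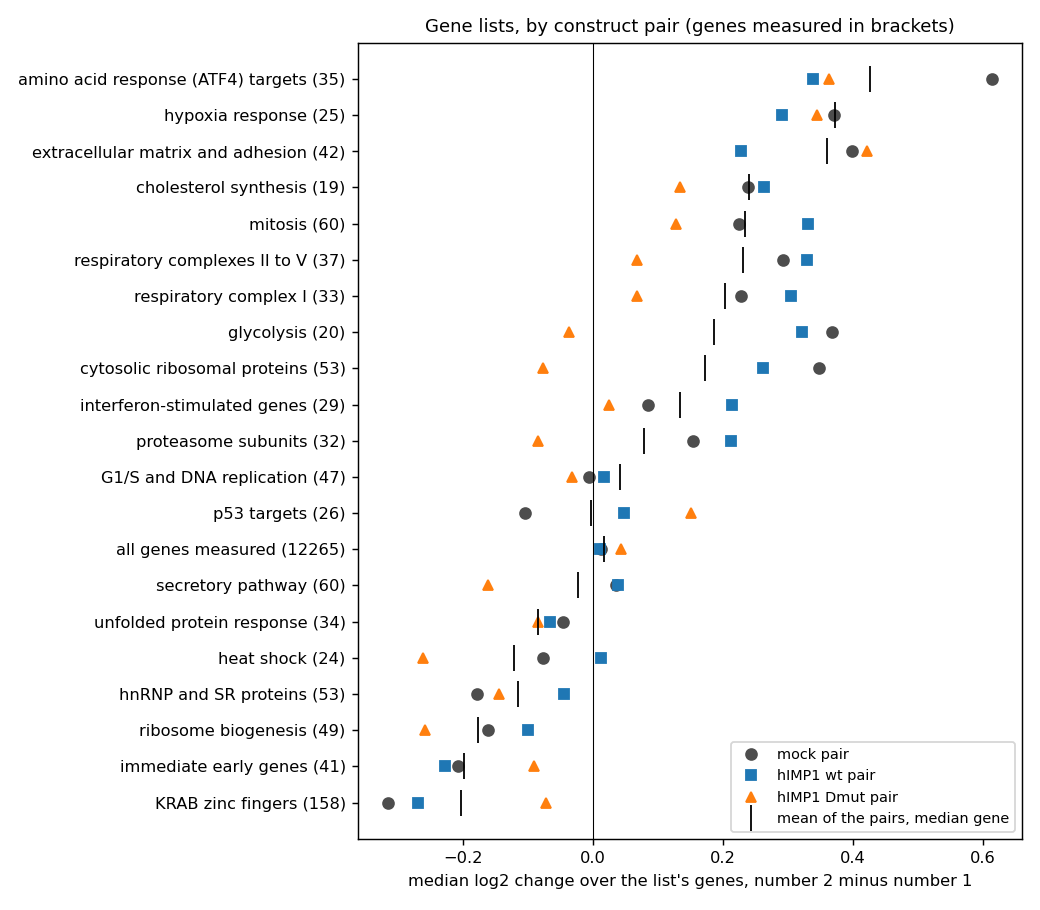
Median log2 change, number 2 minus number 1, of 20 gene lists and of all 12265 genes measured, with 1 symbol per construct pair and a bar at the median of the mean over pairs. The amino acid response, hypoxia and matrix lists lie right of 0 in all 3 pairs and KRAB, immediate early and ribosome biogenesis genes left of it; the cytosolic ribosomal median (0.17) falls to -0.01 under quantile scaling and the heat shock median turns to 0.01 without the hIMP1 Dmut pair.

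Among other lists, those of lysosomes, oxidative stress and p53 targets had calls in both directions; of all genes, 3.71% were called higher and 2.49% lower. Of 46 lysosomal genes 6 were called higher and 1 lower: the storage disease genes GLA (0.71 ± 0.12), LIPA (0.51 ± 0.11) and NPC2 (0.55 ± 0.12) were among the higher, and the autophagy receptor gene SQSTM1 was the lower one. SQSTM1 read 808.7, 795.7 and 813.5 and then 414.0, 483.5 and 481.7 (-0.80 ± 0.12, adjusted p = 0.00462), with 1 of its 2 other probe sets at 0.72, not called. In the list of NRF2 genes, which answer oxidants, SQSTM1, HMOX1 (-0.72 ± 0.18), MAFG (-0.65 ± 0.15) and GCLM (-0.48 ± 0.11) were called lower and SLC7A11 higher. Of 26 p53 targets 4 were called higher, among them SESN1 (0.67 ± 0.12), SESN2 and CCNG1 (0.54 ± 0.12), and 2 lower, the nuclease gene AEN (-0.71 ± 0.12) and GADD45A (-0.52 ± 0.12), with a list median of about 0. Among 29 interferon-stimulated genes 3 were called, all higher: IFITM1 (0.69 ± 0.12), IFIT1 (0.74 ± 0.16) and IFITM2 (0.57 ± 0.13). These calls too rest on the arrays. Without the mock pair 1 lysosomal gene was called higher and 1 lower, without the hIMP1 wt pair 0 and 1, and without the hIMP1 Dmut pair 8 and 3. For NRF2 genes the counts in this order were 0 and 1, 1 and 1, and 7 and 4. For p53 targets they were 1 and 1, 0 and 0, and 6 and 6, and for interferon-stimulated genes 1 and 0, 1 and 0, and 5 and 1. Of all genes 1.92%, 1.19% and 23.1% were called in these fits. Without the hIMP1 Dmut pair the lysosomal list (23.9%) and the interferon-stimulated list (20.7%) were near that share. NRF2 genes (52.4%) and p53 targets (46.2%) were above it. The proteasome list had 24 of 32 genes higher with a median of 0.08 and 1 called, lower. Of 14 genes of the IMP family and its partners 7 were higher and 7 lower, and 0 were called by limma at their brightest probe set, with 4 at an unadjusted p under 0.05, 2 in each direction.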

How the data were processed

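The deposited table gives 1 intensity per probe set and array, on a linear scale. How the authors computed it is not given in the sources used here; with the outer 2% trimmed at both ends, the mean of each of the 6 arrays was 150.02. An offset of 9.05 (the lower quartile of all values) was added to the deposited values before log2, which shrinks fold changes of dim probe sets. After 62 control probe sets were left out, the 27307 probe sets at or above the median mean log2 value (5.19) were kept of 54613. Gene symbols came from the platform annotation: 41091 probe sets had 1 symbol, 1801 several and 11721 none, and only the first were named. A gene was read at its brightest kept probe set. Genes of the X-inactivation centre and Y chromosome were not named.

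The array number, taken from the sample titles, was tested with limma 3.58.1 in R 4.3.3 (lmFit with construct and number, eBayes with an intensity trend, 2 residual degrees of freedom, prior 10.5), with two-sided p-values adjusted over the kept probe sets by Benjamini-Hochberg and a threshold of 0.05. The fit was tested on simulated data. The number of arrays limits the precision.

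The comparison and the 49 gene lists were chosen with earlier results of these data known. The rule for named genes took, per direction, up to 15 called genes of largest change with 3 pairs in agreement, up to 8 such genes with intensities in the upper quartile of kept probe sets, in each described list the 4 genes of largest moderated statistic, with HSPA6 and IGF2BP1. Other list members were named after their values were seen. Alternatives were 3 scalings, 2 offsets, 2 filters, no replicate block, 2 priors, each pair left out, and the mean of a gene's probe sets.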

Additional observations from a re-analysis of the deposited data

Results flagged for a closer look

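Among described lists of at least 10 measured genes (markers, kidney lineage and neuronal genes left out), the hIMP1 Dmut pair had in 11 a median log2 change, number 2 minus number 1, of the opposite sign to the mock and hIMP1 wt pairs and at least 0.2 from their mean. Further lists with a smaller gap, such as the spliceosome core and the secretory pathway, also had the opposite sign. With 1 pair per construct the difference was not tested. Cytosolic ribosomal proteins were at -0.0775 in the hIMP1 Dmut pair, against 0.35 with mock and 0.26 with hIMP1 wt. Under cyclic loess scaling these were -0.02, 0.12 and 0.01. The other lists of bright housekeeping genes had the same order: mitochondrial ribosomal proteins (-0.14 against 0.09 and 0.18), proteasome subunits (-0.0856 against 0.15 and 0.21), the CCT chaperonin with prefoldin (-0.12 against 0.17 and 0.24), cytosolic tRNA synthetases (-0.0772 against 0.30 and 0.17), glycolysis (-0.0376 against 0.37 and 0.32) and mitochondrial import (-0.18 against 0.10 and 0.19). Cytoskeletal lists did as well, with actin genes at -0.0614 against 0.19 and 0.19 and tubulins at -0.0291 against 0.30 and 0.26. The opposite order was seen for NF-kappaB targets (0.0545 against -0.55 and -0.16, 10 genes) and for YAP and serum response targets (0.11 against -0.10 and -0.09). The 2731 brightest probe sets had a median of -0.04 in the hIMP1 Dmut pair, 0.11 with mock and 0.15 with hIMP1 wt; its part in these lists was not tested.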

How the results depend on the processing

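At the probe set used, no gene that was followed changed direction in the alternatives run by gene, which leave out the mean of probe sets. The genes followed were those named by the rule, except genes taken only from the marker, kidney lineage and neuronal lists, such as HOXD10. List members named outside the rule, such as ATF4, CHAC1, ASNS, BNIP3, JUN and FOS, were not followed either. Of 1558 probe sets called (767 higher, 791 lower), leaving out 1 pair gave 330 to 5557 calls, 169 to 2787 higher and 161 to 2770 lower; leaving out 1 array of a pair drops its partner too. Without a filter on dim signal 558 were called (278 higher, 280 lower), and without an intensity trend 0 were (0 higher, 0 lower), with 2 residual degrees of freedom. Without the replicate block, that is with constructs left out, 1968 were called, 1444 of them among the 1558. Quantile and cyclic loess scaling called 1447 and 1504, of which 1330 and 1389 were shared. Median scaling called 437 lower and gave 37.43% of probe sets changed the same way in 3 pairs, against 34.93% with no filter, 49.13% with the stricter filter and 43.37% as reported. It also moved the medians of the hypoxia (0.48), mitosis (0.34), immediate early (-0.10) and ribosome biogenesis (-0.06975) lists. The hypoxia median was 0.27 over the mean of all probe sets and 0.39 without the hIMP1 wt pair, and heat shock was -0.18 without the mock pair. Without the hIMP1 Dmut pair it was 0.33, complex I was 0.33 and heat shock turned to 0.0127. Medians also turned for cytosolic ribosomal proteins (-0.0069) and the CCT chaperonin with prefoldin (-0.0125) under quantile scaling, for NF-kappaB targets without a filter (0.0414) and with the stricter one (0.13), and for the nuclear pore over the mean of probe sets (-0.0701). The cause was not tested. Signal near background limits the dim genes, whose folds depend on the offset.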

Other observations

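Cytoskeletal genes called between the arrays numbered 1 and 2 were mostly higher on the latter. Of 30 genes of the actin cytoskeleton 3 were called, the actin-sequestering thymosins TMSB4X (0.52 ± 0.12) and TMSB10 (0.47 ± 0.13) and the non-muscle myosin gene MYH10 (0.47 ± 0.11). Of 21 tubulins and their partners 2 were, TUBA1A (0.99 ± 0.13) and the microtubule-binding MAP4 (0.46 ± 0.12). Among targets of YAP and serum response factor, AJUBA (0.67 ± 0.14) and ACTA2 (0.52 ± 0.13) were higher and AMOTL2, an inhibitor of YAP, was lower (-0.74 ± 0.17). The share of all genes called was 6.2%. Without the mock pair, or without the hIMP1 wt pair, 0 actin genes, 0 YAP targets and 1 tubulin gene were called. Without the hIMP1 Dmut pair 10 actin genes were called higher and 2 lower. For tubulins the counts were 11 and 0, and for YAP targets 4 and 1, where 23.1% of all genes were called. The medians of these lists had the opposite sign in the hIMP1 Dmut pair, as given above.

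Of 13 measured embryonic kidney factors 1 was called (7.69%, against 6.2% of all genes), HOXD10 (0.55 ± 0.12), and of 10 measured neuronal genes limma called 0, with 4 at an unadjusted p under 0.05. Among 39 translation factors 1 was called higher and 2 lower (7.69%, against 6.2% of all genes). The elongation factor gene EEF1D was higher (0.62 ± 0.13) and the initiation factor genes EIF3I (-0.54 ± 0.12) and EIF2S1 (-0.44 ± 0.11) were lower. Without the mock or the hIMP1 wt pair 0 translation factors were called. In the list of RNAs kept in the nucleus 3 of 13 genes were called higher and 1 lower (30.8%, against 6.2% of all genes). OIP5-AS1 (0.80 ± 0.12, -0.09 at another probe set) and OGT (0.53 ± 0.11) were higher beside MALAT1. The other OGT probe sets gave 0.05 to 0.27 and were not called. CCNL1 was lower (-0.60 ± 0.13), with another probe set of CCNL1 in the opposite direction.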
